A study of Mus musculus with 9 samples.

Results

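The genes that read, activate and answer corticosteroids were examined in the mouse colon under 2 housing conditions. The 9 members were named by symbol and comprise both corticosteroid receptor genes (Nr3c1, Nr3c2), both genes of the enzymes that interconvert active and inactive corticosteroid (Hsd11b1, Hsd11b2) and 5 genes that these receptors are known to induce (Fkbp5, Tsc22d3, Sgk1, Zbtb16, Klf9). All 9 were found among the 22262 genes counted at least once, and all 9 passed the filter on low counts, which left 17441 genes. The samples were wild-type female C57BL/6N mice aged 12 months without any transgene. The 4 WT_SE mice (numbers 1, 2, 3 and 5) had lived in standard cages, and the 5 WT_EE mice (numbers 1 to 5) in an enriched environment, a larger cage with more companions, tunnels, toys and running wheels. Cage size, company and exercise differed together, so their parts cannot be told apart. The mice lived in group cages, and which of them shared a cage was not stated. A cage effect therefore cannot be told apart from housing, and all p-values take each mouse as independent. A piece described as upper colon wall was taken from each mouse after the feces had been washed out. This was in the light phase, at an hour that was not stated. The question was whether housing was accompanied by a difference in this hormone pathway in the colon.

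Each library counted messenger RNA molecules by a tag at the 3′ end and a molecular identifier. Totals lay between 295535 counts (WT_EE mouse 2) and 454043 counts (WT_EE mouse 1). Levels are given as CPM, the count scaled to a common library size, after TMM normalization, which also corrects for library composition. One molecule gives 1 tag whatever its length, so CPM values of different genes were set side by side without division by length. Summed counts of genes with means of 80 or more grew more slowly than the library total, as given under Klf9. Levels of different genes are therefore better read by their order than by their ratio. A floor of 3 counts, equal to 6.61 to 10.2 CPM depending on the library, was taken as the limit of detection and covers counting error only.

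Corticosterone from the adrenal gland enters cells and binds the glucocorticoid receptor (Nr3c1) or the mineralocorticoid receptor (Nr3c2), which are held ready by heat shock protein 90 and its cochaperones and then act in the nucleus as transcription factors. The enzyme encoded by Hsd11b2 inactivates corticosterone in aldosterone target cells such as the epithelium of the colon, which leaves the mineralocorticoid receptor there to aldosterone, and the enzyme encoded by Hsd11b1 regenerates the active hormone. Fkbp5, Tsc22d3, Zbtb16 and Klf9 are widely used readouts of glucocorticoid action, and Sgk1 answers both receptors and promotes sodium uptake.

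The label of colon fitted the markers, while genes of position along the colon differed between the pieces, as given below. All 15 epithelial markers were counted, led by the mucin gene Muc2 (767 CPM on average), and their sum lay between 5402 and 6781 CPM in WT_SE and between 5158 and 6689 CPM in WT_EE. All 10 smooth muscle markers were counted, led by Mylk (522 CPM). Their sum was 3077, 2637, 2689 and 3307 CPM in WT_SE mice 1, 2, 3 and 5. In WT_EE mice 1 to 5 it was 2677, 4598, 2640, 4500 and 3191 CPM, highest in mice 2 and 4. WT_EE mice 2 and 4 and WT_SE mouse 3 were the smallest libraries. They also had the highest epithelial sums, at 6501, 6689 and 6781 CPM. The part of depth in these sums was not tested. Genes of adrenal steroid synthesis (Cyp11b1, Cyp11b2) had no count in any library.

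Of the 9 genes 1, the glucocorticoid receptor gene Nr3c1, was called between the housing conditions before adjustment, and none after it. In edgeR's quasi-likelihood test 1 of 9 members, Nr3c1, had an unadjusted p under 0.05 and was lower in WT_EE, while 7.65% of all 17441 genes passed that limit and 3.34% passed it in this direction. No member was called higher, against 4.31% of all genes, and no member had WT_SE and WT_EE values that did not overlap, against 2.58% of all genes. One call among 9 genes is close to that background. After Benjamini-Hochberg adjustment over all genes in edgeR 0 members were called, and the total was 7 genes against 1334 unadjusted. That total ran from 0 to 48 with a mouse left out and was 143 without a filter on low counts. DESeq2 and limma-voom gave 0 genes each after adjustment, and 643 and 1357 genes unadjusted. The log2 fold change of WT_EE over WT_SE was positive for 5 of 9 members with a median of 0.10, beside 51.1% positive and a median of 0.01 over all genes.

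**Figure D1:**
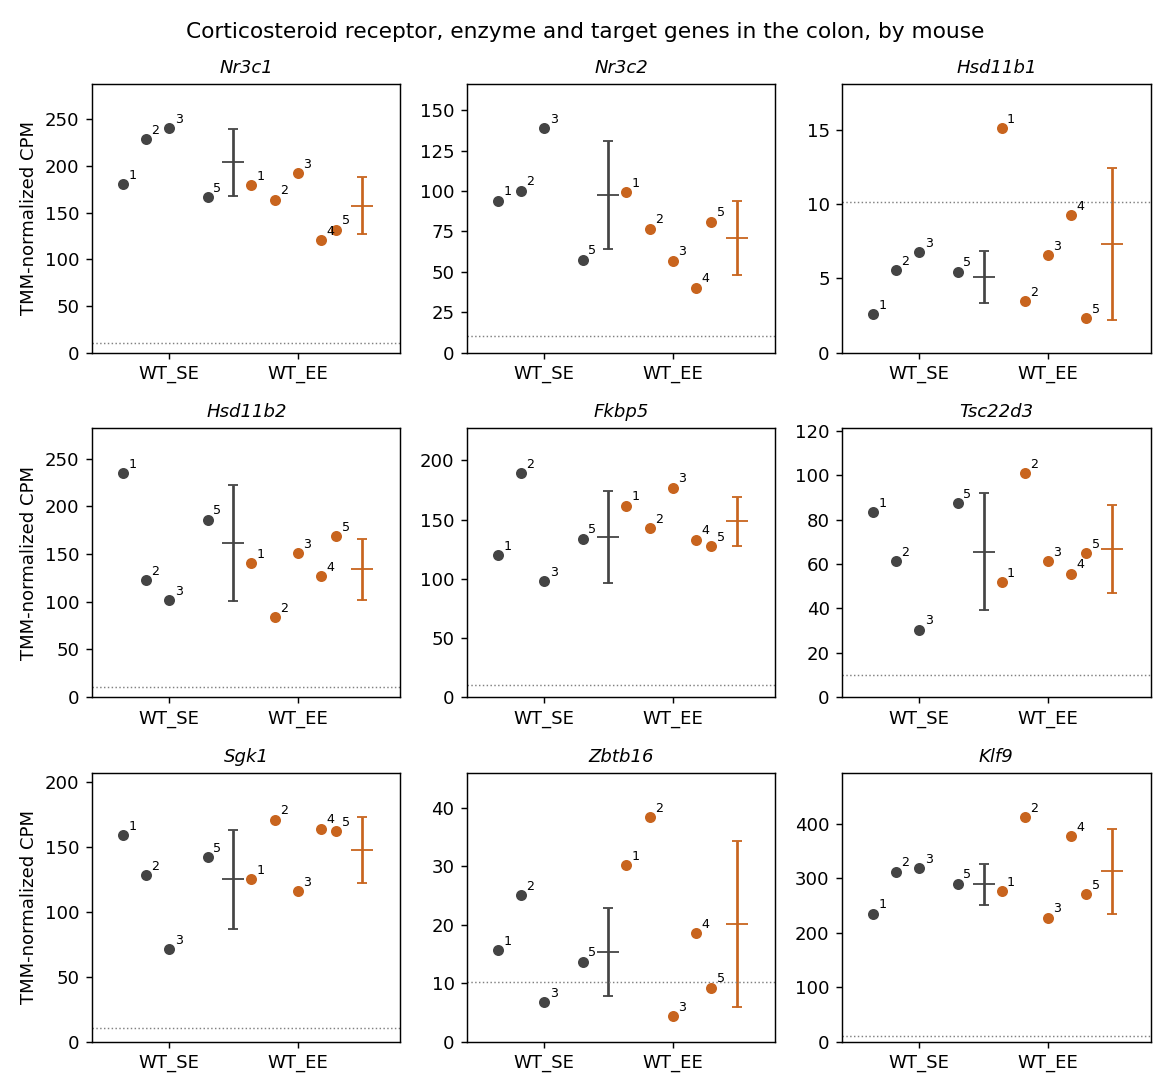
TMM-normalized CPM of the 9 genes in each mouse (points, numbered by mouse; the y axis of each panel starts at 0), with the mean and SD of each group to the right of its points and the highest floor of 3 counts in any library as a dotted line. The groups overlap in every panel, and Hsd11b1 lies at or below the dotted line in all mice but WT_EE mouse 1.

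The levels of the members spanned from near the floor to the upper part of all genes. Klf9 was the most abundant with a mean of 302 CPM over the 9 mice, at percentile 98.5 of the genes tested, and exceeded Nr3c1 in 9 of 9 mice. Nr3c1 (178 CPM), Hsd11b2 (146 CPM), Fkbp5 (143 CPM) and Sgk1 (138 CPM) followed, and neighbors in this order were not separable. Nr3c1 exceeded Hsd11b2 in 5 mice, Hsd11b2 exceeded Fkbp5 in 4, and Fkbp5 exceeded Sgk1 in 4. Nr3c2 (82.7 CPM) lay below Sgk1 in 8 of 9 mice and was not separable from Tsc22d3 (66.4 CPM), which it exceeded in 5. Zbtb16 and Hsd11b1 were the scarcest, at percentiles 43.7 and 26.2.

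Nr3c1, the glucocorticoid receptor gene (ENSMUSG00000024431, GRCm38 chr18:39410545-39519421, minus strand), was lower in WT_EE. It had 69, 82, 71 and 61 counts in WT_SE mice 1, 2, 3 and 5, or 180.1, 228, 240.1 and 167 CPM. In WT_EE mice 1 to 5 it had 83, 47, 88, 39 and 57 counts, or 179, 164, 192, 121 and 132 CPM. WT_SE mice 2 and 3 stood above all WT_EE mice, and WT_EE mice 2, 4 and 5 stood below all WT_SE mice, but WT_SE mice 1 and 5 lay within the range of WT_EE. WT_SE averaged 204 ± 35.9 CPM (SD, n = 4), whereas WT_EE averaged 158 ± 30.6 CPM (SD, n = 5). WT_EE reached 0.783 of the WT_SE level, a log2 fold change of −0.35 (SE 0.16, 95% interval −0.68 to −0.03), with an adjusted p of 0.59 in edgeR with Benjamini-Hochberg adjustment. The unadjusted p was 0.0333 in edgeR, and the two-sided exact permutation test over all divisions of the mice into groups of these sizes gave p = 0.0952.

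Nr3c2, the mineralocorticoid receptor gene (ENSMUSG00000031618, chr8:76899442-77245012, plus strand), had a difference of the same direction that did not pass the test. It was at 94.0, 100.2, 139 and 57.4 CPM in WT_SE mice 1, 2, 3 and 5, from 21 to 41 counts. In WT_EE mice 1 to 5 it was at 99.3, 76.7, 56.8, 40.2 and 81.0 CPM, from 13 to 46 counts. WT_SE mouse 3 was the highest and WT_EE mouse 4 the lowest, as for Nr3c1, and the groups overlapped over most of their range. The log2 fold change was −0.42 (SE 0.24, 95% interval −0.90 to 0.05), with p = 0.0800 in edgeR and p = 0.175 in the exact permutation test. Within a mouse Nr3c1 had 1.63 to 3.38 times the counts of Nr3c2, with means of 2.21 ± 0.515 (SD, n = 4) in WT_SE and 2.39 ± 0.765 (SD, n = 5) in WT_EE, and this ratio gave p = 0.73 in the exact permutation test.

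Nr3c1, and Nr3c2 in part, varied between mice together with genes outside the pathway. The gene Slc10a2, the bile acid carrier of the ileum that is also present in proximal colon, was at 67.9, 287, 372 and 43.7 CPM in WT_SE mice 1, 2, 3 and 5. In WT_EE mice 1 to 5 it was at 231, 10.5, 256, 12.4 and 23.1 CPM. The 2 mice highest in Nr3c1, WT_SE mice 2 and 3, were also highest in Slc10a2, and the 3 mice lowest in Nr3c1, WT_EE mice 2, 4 and 5, were lowest in it. Nr3c2 did not follow this order throughout. It was at 56.8 CPM in WT_EE mouse 3, where Slc10a2 was high, and at 81.0 CPM in WT_EE mouse 5, where Slc10a2 was low. With the Slc10a2 level as a term in the fit, a setting chosen after its spread had been seen, the log2 fold change of Nr3c1 was −0.20 (SE 0.15) and no longer called, and that of Nr3c2 was −0.26 (SE 0.23). Slc10a2 led a list of 11 markers of pancreas, ileum and adrenal gland, of which 6 were counted and Cpa1, Cela2a, Apoa4, Cyp11b1 and Cyp11b2 were at 0. Its sum was 78.3, 368, 423 and 60.1 CPM in WT_SE mice 1, 2, 3 and 5, and 272, 17.4, 332, 15.5 and 37.0 CPM in WT_EE mice 1 to 5.

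**Figure D2:**
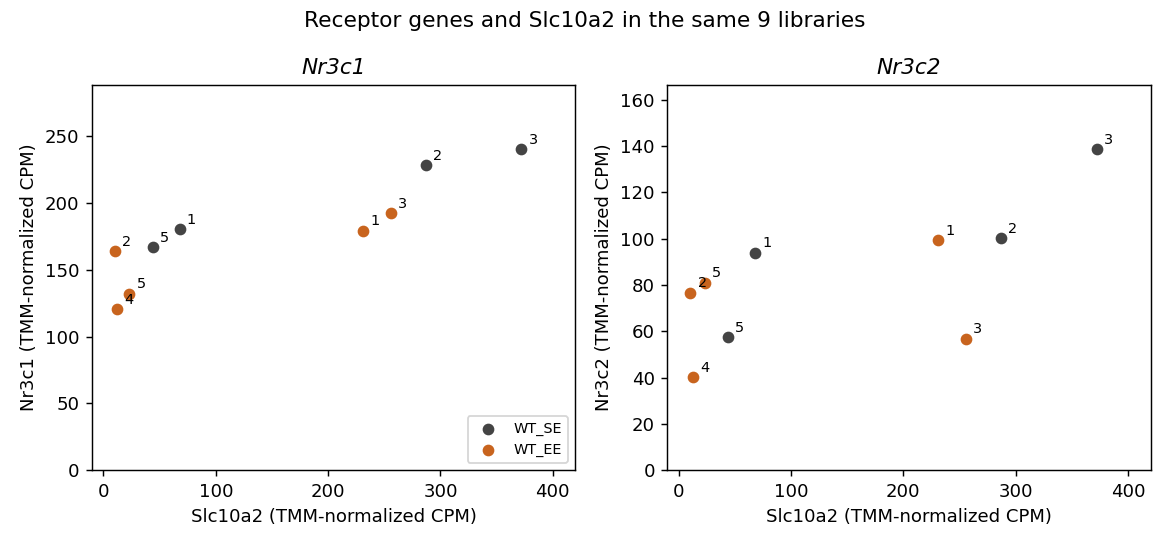
Nr3c1 (left) and Nr3c2 (right) against Slc10a2 in the same libraries, all as TMM-normalized CPM on linear axes, with 1 point per mouse, numbered by mouse and coloured by housing. Nr3c1 is highest in WT_SE mice 2 and 3, where Slc10a2 is at 287 and 372 CPM, and lowest in WT_EE mice 4 and 5, where it is at 12.4 and 23.1 CPM.

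Other lists described the same piece of tissue. Of 8 Hox genes listed as markers of the distal colon 7 were counted, led by Hoxa13 (72.9 CPM), with Hoxd12 at 0. Hoxb13 and Hoxd10, both in this list, had unlike patterns. Hoxb13 was at 10.4, 0, 0 and 153 CPM in WT_SE mice 1, 2, 3 and 5. In WT_EE mice 1 to 5 it was at 0, 157, 45.9, 74.2 and 46.3 CPM. Hoxd10 was at 5.22, 61.3, 27.1 and 0 CPM in WT_SE, and 10.8, 0, 26.2, 0 and 4.63 CPM in WT_EE. The sum of the list therefore mixes unlike patterns. This sum was 211, 209, 166 and 325 CPM in WT_SE mice 1, 2, 3 and 5, and 188, 342, 192, 241 and 234 CPM in WT_EE mice 1 to 5. It was thus lowest in WT_SE mouse 3, the mouse with the most Nr3c1, and highest in WT_EE mouse 2. The 3 mice highest in Nr3c1, WT_SE mice 2 and 3 and WT_EE mouse 3, were among the 4 mice with the lowest smooth muscle sums given above, and WT_EE mice 2 and 4, with the highest sums, were among the 3 lowest in Nr3c1. The muscle actin gene Acta2 was called higher in WT_EE (log2 fold change 0.36, edgeR p = 0.0486, exact permutation p = 0.278). The part of muscle in the receptor values was not tested, and that of the position along the colon was tested only through the Slc10a2 term.

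The call of Nr3c1 rested on a few mice. It was lost without WT_SE mouse 2 (log2 fold change −0.28, SE 0.17), WT_SE mouse 3 (−0.26, SE 0.17), WT_EE mouse 4 (−0.27, SE 0.16) or WT_EE mouse 5 (−0.28, SE 0.17), and in DESeq2 (−0.37, SE 0.20). The libraries of WT_SE mice 1 and 3 carry another ending in their names (L3) than the other 7 (L2), and no WT_EE library carries it. With the ending as a term Nr3c1 gave −0.31 (SE 0.20), which was not called, and Nr3c2 −0.13 (SE 0.29). Among the L2 libraries alone, 2 of WT_SE and 5 of WT_EE, they gave −0.30 (SE 0.20) and −0.12 (SE 0.30), neither of them called, and no value can be had within L3.

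The genes whose pattern over the 9 mice was most like that of Nr3c1, by Pearson's r of log2(CPM + 1) among 5811 compared genes, were Slc40a1, the iron exporter ferroportin (r = 0.983), Epc1 (r = 0.961) and Gclc, a glutathione synthesis gene (r = 0.954). Their own log2 fold changes were −0.72 for Slc40a1, −0.53 for Epc1 and −0.49 for Gclc. These values describe 9 libraries that also differ in depth and tissue makeup, and they were picked as the highest of many.

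Hsd11b2, the corticosteroid-inactivating enzyme of aldosterone target cells (ENSMUSG00000031891, chr8:105518755-105523988, plus strand), was readily counted in every mouse. It was at 235, 122, 102 and 186 CPM in WT_SE mice 1, 2, 3 and 5, and at 140.3, 83.7, 151, 127 and 169 CPM in WT_EE mice 1 to 5. The WT_SE mice enclosed all WT_EE mice except mouse 2, and WT_SE mouse 1 stood highest. WT_SE averaged 161 ± 60.9 CPM (SD, n = 4), and WT_EE averaged 134 ± 32.1 CPM (SD, n = 5). The log2 fold change was −0.26 (SE 0.19, 95% interval −0.65 to 0.13), with p = 0.191 in edgeR and p = 0.444 in the exact permutation test. Single mice moved this value widely, to −0.01 (SE 0.20) without WT_SE mouse 1 and to −0.40 (SE 0.19), which was called, without WT_SE mouse 3. With the library total as a term, a setting chosen after the data were seen, it was −0.52 (SE 0.18) and called.

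Hsd11b1, the corticosteroid-regenerating enzyme (ENSMUSG00000016194, chr1:193221634-193264075, minus strand), was barely detectable. It had 1, 2, 2 and 2 counts in WT_SE mice 1, 2, 3 and 5 and 7, 1, 3, 3 and 1 counts in WT_EE mice 1 to 5. Only WT_EE mouse 1 exceeded the floor, so no fold is given, and a difference was not detectable at this depth (edgeR p = 0.421, exact permutation p = 0.468). The gene overlaps Lamb3, which had 337 counts, on the opposite strand, and the strand setting of the counting was not stated. Hsd11b1 is abundant in fat, and RNA of fat varied between the pieces. All 12 adipocyte markers were counted, led by Fabp4 (136 CPM), and their sum was 1389, 217, 528 and 208 CPM in WT_SE mice 1, 2, 3 and 5 and 397, 634, 793, 452 and 211 CPM in WT_EE mice 1 to 5. The mouse with the most fat RNA, WT_SE mouse 1, had 1 count of Hsd11b1. Counts at or under the floor cannot show whether Hsd11b1 follows fat, and the part of fat was not tested.

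**Figure D3:**
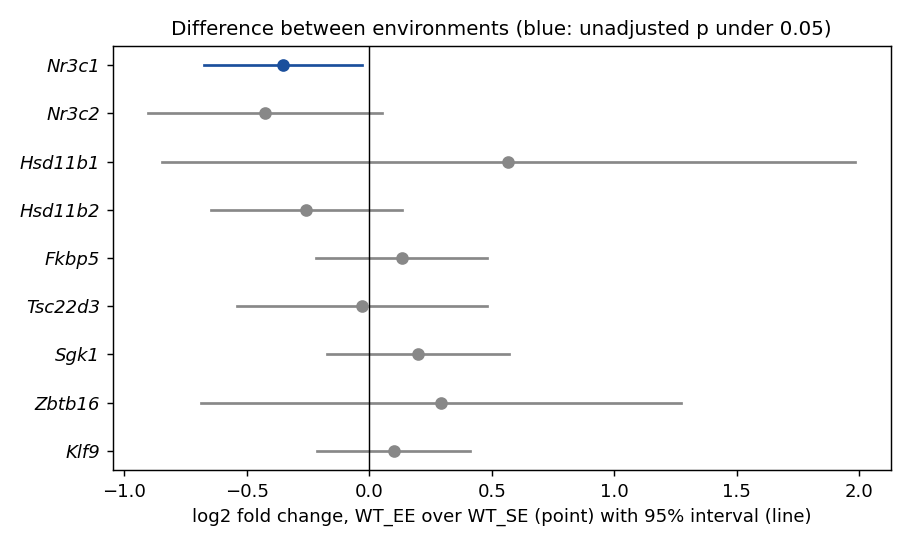
The log2 fold change of WT_EE over WT_SE for each member (points) with its 95% interval (lines) from edgeR's quasi-likelihood fit, blue where the unadjusted p was under 0.05. The interval of Nr3c1 ends at −0.03 and those of the other 8 genes include 0, with the widest for Hsd11b1 and Zbtb16, the genes with the fewest counts.

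None of the 5 target genes passed the test, and their intervals limit how large a difference could be. Fkbp5, the cochaperone that lowers receptor affinity and is itself induced by the receptor (ENSMUSG00000024222, chr17:28399094-28517527, minus strand), was at 120.1, 189, 98.1 and 134 CPM in WT_SE mice 1, 2, 3 and 5. In WT_EE mice 1 to 5 it was at 162, 143, 177, 133 and 127 CPM, all inside the range of WT_SE. WT_EE was at 1.10 times the WT_SE level (95% interval 0.861 to 1.40, edgeR p = 0.446, exact permutation p = 0.524). Another annotated gene on the same strand, AC154912.3 with 237 counts in all, overlaps Fkbp5, so the split of tags between them is uncertain.

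Tsc22d3, which encodes the anti-inflammatory protein GILZ (ENSMUSG00000031431, chrX:140539528-140600659, minus strand), had 9 to 32 counts per mouse. It was at 83.5, 61.3, 30.4 and 87.5 CPM in WT_SE mice 1, 2, 3 and 5 and at 51.8, 101, 61.2, 55.7 and 64.8 CPM in WT_EE mice 1 to 5. The extremes were WT_SE mouse 3 and WT_EE mouse 2, and the group means nearly coincided, at 65.7 ± 26.2 CPM for WT_SE (SD, n = 4) and 66.9 ± 19.8 CPM for WT_EE (SD, n = 5). The ratio of WT_EE to WT_SE fitted by edgeR was 0.979, on the other side of 1 than the ratio of these means (95% interval 0.687 to 1.40, edgeR p = 0.904, exact permutation p = 0.944).

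Sgk1, the kinase that answers both receptors (ENSMUSG00000019970, chr10:21882184-21999903, plus strand), is shown with a stretch of its promoter because it was the only member whose promoter windows held the receptor motif searched for. Both corticosteroid receptors bind variants of the half-sites GNACA and TGTNC with 3 bases between them, a pattern that reads the same on both strands. RefSeq promoter windows (GRCm38.p6, 250 bases before to 50 after a start site) were matched for 6 members with 13 windows, namely Nr3c2, Hsd11b1, Fkbp5, Tsc22d3, Sgk1 and Klf9, and not for Nr3c1, Hsd11b2 and Zbtb16. The motif was in 1 of these 13 windows (7.69%), in 2 of 34 windows of the corticosteroid-responsive list described further on (5.88%), and in 156 of all 32851 windows (0.475%). The Sgk1 match starts 188 bases upstream of 1 of its 6 start sites, and the others belong to the metallothionein gene Mt1 and to Txnip. A match describes letters only and no binding was measured. The motif is in capitals, 5′ to 3′ on the plus strand.
Sgk1, chr10:21993694-21993722, plus strand: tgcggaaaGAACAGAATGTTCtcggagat
Mt1, chr8:94178987-94179015, plus strand: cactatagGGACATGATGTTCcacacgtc
Txnip, chr3:96557777-96557805, plus strand: cgctaggaGCACACCGTGTCCacgcgccc

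Sgk1 was at 159, 128, 71.0 and 142 CPM in WT_SE mice 1, 2, 3 and 5, and at 125, 171, 116, 164 and 162 CPM in WT_EE mice 1 to 5. WT_SE mouse 3 was far below the others, and 3 WT_EE mice lay just above the highest WT_SE mouse. WT_EE was at 1.15 times the WT_SE level (95% interval 0.888 to 1.48, edgeR p = 0.285, exact permutation p = 0.349), and with the Slc10a2 level as a term the log2 fold change was 0.008 (SE 0.171). Sgk1 and Tsc22d3 shared their extremes, with the lowest level in WT_SE mouse 3 and the highest in WT_EE mouse 2. Those mice had the highest and the lowest Slc10a2 level, and they were the smallest libraries, with 299062 and 295535 counts. The part of these features in the values of Tsc22d3 was not tested beyond the fits with such a term, in which it was not called.

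Zbtb16, a zinc finger transcription factor that glucocorticoid induces strongly in many cells (ENSMUSG00000066687, chr9:48654297-48836222, minus strand), had 2 to 14 counts per mouse. WT_SE averaged 15.3 ± 7.55 CPM (SD, n = 4), WT_EE averaged 20.1 ± 14.2 CPM (SD, n = 5), and 1 mouse in each group was at or below the floor. The interval of WT_EE over WT_SE ran from 0.621 to 2.42 (edgeR p = 0.549, exact permutation p = 0.556), so a difference of 2-fold lies within it.

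Klf9, a transcription factor of the Krüppel-like family (ENSMUSG00000033863, chr19:23141226-23168134, plus strand), was at 235, 312, 318 and 289.7 CPM in WT_SE mice 1, 2, 3 and 5. In WT_EE mice 1 to 5 it was at 276, 411, 227, 377 and 271 CPM, and mice 2 and 4 stood above all WT_SE mice. WT_EE was at 1.07 times the WT_SE level (95% interval 0.861 to 1.33, edgeR p = 0.528, exact permutation p = 0.579). Its counts varied little, from 90 to 128, although library totals differed, and the highest CPM values fell in 2 of the smaller libraries, which also held the highest smooth muscle and fibroblast marker sums. Over all genes grouped by their mean counts, the slope of summed counts on the library total, both on log2 scales, was 1.34 for means of 5 to 20, 1.3 for 20 to 40, 1.04 for 40 to 80, 0.544 for 80 to 150 and 0.593 above. With the library total as a term, Klf9 gave a log2 fold change of 0.25 (SE 0.11), larger than without it, and was called. The part of depth in the values of the members was not tested beyond that fit.

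The genes most like 5 other members over the 9 mice were found in the same way. For Hsd11b2 they were Atxn7l3 (r = 0.948), Cope (r = 0.942) and Tm2d2 (r = 0.934). For Fkbp5 they were Ptch1, the hedgehog receptor (r = 0.952), Sbf2 (r = 0.937) and Ptdss2 (r = 0.919). For Tsc22d3 they were Klhl23 (r = 0.945), Phlpp2 (r = 0.943) and the immediate early gene Jun (r = 0.926). None of these 9 genes, nor those that follow, had an unadjusted p under 0.05. For Sgk1 they were Tmem168 (r = 0.964), Pde3a, a phosphodiesterase (r = 0.955), and Ss18 (r = 0.953). For Klf9 they were the glycolytic gene Aldoa (r = 0.968), Cdk11b (r = 0.956) and Srsf11 (r = 0.955).

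Beyond the 9 genes, 30 further genes that corticosteroids are known to regulate were counted, and 28 were tested. Of these 4 were called higher in WT_EE, 1 lower and 23 not at all (17.9% called), and 20 of 28 log2 fold changes were positive with a median of 0.18, beside 7.65% called and a median of 0.01 over all genes. Nfil3, 1 of the 4, was below 4 CPM in every WT_SE mouse and passed the filter only through WT_EE. With a mouse left out 1 to 6 of the list were called, and 1 without WT_SE mouse 3. None passed adjustment in edgeR, DESeq2 or limma-voom. This list and those that follow were chosen with earlier results of these data known. Their shares beside that of all genes are therefore a description and not independent evidence of an excess. Tgm2, a protein-crosslinking transglutaminase, was the only gene of the list whose groups did not overlap, with 80.9, 72.4, 47.4 and 79.3 CPM in WT_SE and 103.6, 83.7, 102.7, 89.7 and 111 CPM in WT_EE (log2 fold change 0.48, SE 0.20, edgeR p = 0.0217, exact permutation p = 0.0159). Anxa1, which encodes the anti-inflammatory annexin A1, was higher in WT_EE with 171 ± 36.4 CPM (SD, n = 5) against 118 ± 49.7 CPM (SD, n = 4), a log2 fold change of 0.49 (edgeR p = 0.0198, exact permutation p = 0.127). Txnip, the thioredoxin-interacting protein gene, was at 264 ± 27.2 CPM (SD, n = 5) against 208 ± 35.3 CPM (SD, n = 4), a log2 fold change of 0.34 (edgeR p = 0.0216, exact permutation p = 0.0476). Anxa1 was lowest in WT_SE mouse 3 (57.5 CPM), as Sgk1 was, and its call was lost without that mouse (0.29), without WT_SE mouse 2 (0.40) or without WT_EE mouse 2 (0.40). Tgm2 too was lowest there, and gave 0.36, not called, without it. The call of Txnip was lost without WT_SE mouse 1 (0.29) or WT_SE mouse 5 (0.28). Mt1, the metal-binding metallothionein, fell from 299.9 ± 63.0 CPM (SD, n = 4) to 236 ± 38.4 CPM (SD, n = 5), a log2 fold change of −0.33 (edgeR p = 0.0362, exact permutation p = 0.0873). That call was lost without any 1 of WT_SE mice 1, 2 or 3 or WT_EE mouse 2, and the value among the L2 libraries was −0.10. With the Slc10a2 level as a term Anxa1 gave 0.24 and Mt1 −0.22, neither of them called, while Tgm2 (0.48) and Txnip (0.33) were. With the ending as a term Tgm2 (0.38), Anxa1 (0.345) and Mt1 (−0.11) were not called, nor were they among the L2 libraries, while Txnip was in both. Tgm2 was also lost in DESeq2 and with the library total as a term (0.35), Mt1 in DESeq2, limma-voom and with filterByExpr, the stricter count filter of edgeR, and Txnip with upper-quartile scaling (0.30). Nfil3, a repressor in the clock, had 0 or 1 count in each WT_SE mouse and 1 to 5 counts in the WT_EE mice, too close to the floor for a fold. Its call was lost in 11 of 22 alternatives, among them DESeq2, the Slc10a2 level or the ending as a term, and the L2 libraries.

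The lists that act with the receptors showed few calls. Of 15 chaperones and cochaperones 0 were called higher, 1 lower and 14 not at all, with a median log2 fold change of 0.04. That share of 6.67% called is close to the 7.65% of all genes. The exception, Ptges3, encodes p23, the cochaperone that stabilises receptors bound to heat shock protein 90. It was at 172, 181, 189 and 202 CPM in WT_SE mice 1, 2, 3 and 5 and at 149, 153, 153 and 136 CPM in WT_EE mice 1 to 4 and 155 CPM in WT_EE mouse 5. All WT_EE mice lay below all WT_SE mice, with a log2 fold change of −0.31 (SE 0.14, p = 0.0345 and adjusted p = 0.594 in edgeR with Benjamini-Hochberg adjustment), and the exact permutation test gave p = 0.00794, the smallest it can give. The edgeR call was lost without WT_EE mice 1, 4 or 5 or WT_SE mice 3 or 5, with log2 fold changes of −0.35 to −0.27 over all mice left out in turn, and also in DESeq2, without a filter, over the 8 mice whose number occurs in both groups (with or without the number as a block), with the ending as a term (−0.36) and among the L2 libraries (−0.345). The next genes of this list were not called, namely St13 (log2 fold change −0.19, SE 0.14), Hsp90ab1 (0.18, SE 0.14), Stip1 (0.29, SE 0.25) and Hsp90aa1 (0.16, SE 0.15). Of 16 coregulators none was called in the edgeR fit reported, and the smallest p-values belonged to Tgfb1i1, known as Hic-5 (log2 fold change 0.43, SE 0.22), Smarca4, a chromatin remodeller (−0.31, SE 0.18), Nrip1 (−0.23, SE 0.15) and Ncoa6 (0.20, SE 0.16). Tgfb1i1 had an exact permutation p of 0.0397. In 11 of 23 alternatives 1 coregulator was called, such as Tgfb1i1 with filterByExpr, Smarca4 with the library total (−0.59) and Nrip1 with the Slc10a2 level (−0.39) as a term. The median of that list was 0.03.

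Sodium and potassium transport genes under mineralocorticoid control gave 1 call in each direction among 18 genes (11.1% called, against 7.65% of all genes). The other 16 were not called, and the median log2 fold change was 0.03. Scnn1g, 1 of them, was below 4 CPM in every WT_SE mouse and passed the filter only through WT_EE. Nothing is drawn from its value. Atp12a, the colonic proton-potassium pump, had 1, 0, 2 and 5 counts in WT_SE mice 1, 2, 3 and 5 and 2, 25, 12, 14 and 2 counts in WT_EE mice 1 to 5. Its rise came from WT_EE mice 2, 3 and 4 and the groups overlapped, with p = 0.00205 in edgeR and p = 0.151 in the exact permutation test. The call was lost in limma-voom, while without a filter, with the library total as a term or without WT_EE mouse 1 the gene passed Benjamini-Hochberg adjustment in edgeR (adjusted p = 0.00318, 0.0319 and 0.0497). Oxsr1, a kinase that activates sodium chloride cotransport, was lower at 27.4 ± 4.42 CPM (SD, n = 5) against 41.8 ± 7.64 CPM (SD, n = 4), a log2 fold change of −0.61 (edgeR p = 0.043, exact permutation p = 0.0238). That call was lost on leaving out any single mouse except WT_EE mouse 2 or WT_SE mouse 5, with values of −0.70 to −0.50. It was not called with the Slc10a2 level (−0.575), the ending (−0.51) or the library total (−0.50) as a term either. Prss8, a channel-activating protease (log2 fold change −0.54, SE 0.29), and Usp2 (−0.33, SE 0.21) were not called. Each was called in 4 of 23 alternatives, among them the library total as a term (−0.775 for Prss8 and −0.47 for Usp2). With a mouse left out Usp2 ran from −0.546 to −0.08.

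Of 24 genes of local steroid synthesis, supply and clearance 13 had counts, and those with 0 counts in all of these libraries were Cyp11a1, Cyp11b1, Cyp11b2, Cyp21a1, Hsd3b1, Nr5a1, Nr0b1, Nr0b2, Serpina6, Akr1d1 and Cyp3a11. Of the 13 tested 0 were higher, 2 lower and 11 not called (15.4% called, against 7.65% of all genes), with a median log2 fold change of −0.12. Nr5a2, the nuclear receptor LRH-1 that drives steroid synthesis in the intestine, was at 109.6, 169.9, 145 and 175 CPM in WT_SE mice 1, 2, 3 and 5. In WT_EE mice 1 to 5 it was at 129, 94.1, 118, 77.3 and 106 CPM. The groups overlapped through WT_SE mouse 1 alone, and the log2 fold change was −0.49 (SE 0.18, p = 0.00922 and adjusted p = 0.418 in edgeR with Benjamini-Hochberg adjustment, exact permutation p = 0.0476). It passed the unadjusted limit in every alternative except without WT_SE mouse 5 (−0.40, SE 0.20). Srd5a1, a steroid 5α-reductase gene, had 10, 3, 5 and 7 counts in WT_SE and 2, 1, 4, 5 and 2 counts in WT_EE (edgeR p = 0.019, exact permutation p = 0.0397), and its call was lost without WT_SE mouse 1, in DESeq2, with the ending as a term and among the L2 libraries. Srd5a2 and Hsd3b2 were not called and had 0 to 11 counts per mouse.

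Clock genes, whose daily rhythm corticosterone helps to set, gave 2 higher, 0 lower and 17 uncalled among 19 (10.5% called, against 7.65% of all genes), with a median of 0.02. Arntl (BMAL1) was at 10.4, 16.7, 16.9 and 27.3 CPM in WT_SE mice 1, 2, 3 and 5 and at 12.95, 41.8, 28.4, 34.0 and 64.8 CPM in WT_EE mice 1 to 5 (edgeR p = 0.0161, exact permutation p = 0.0952), with WT_EE mouse 5 the highest. The call was lost without WT_EE mouse 5 (log2 fold change 0.65, SE 0.41) or WT_SE mouse 1 (0.80, SE 0.42). It was also lost with the Slc10a2 level (0.66) or the ending (0.70) as a term, among the L2 libraries (0.71) and in limma-voom (0.83). Nfil3 was the other gene called. It was at 2.785 CPM or less in every WT_SE mouse, so it passed the filter on low counts only through WT_EE. Per3 (log2 fold change −0.58, SE 0.29) and Nr1d2 (−0.22, SE 0.15) were not called. Per3 was called in 12 of 23 alternatives, among them limma-voom (−0.76), the ending as a term (−0.82) and the L2 libraries (−0.81), and ran from −0.89 to −0.27 over all of them. Per3, which peaks at another phase than Arntl, was lowest in the same WT_EE mouse 5 at 23.1 CPM, and the phase of the mice was not tested.

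Immediate early genes, which many kinds of stimulus induce within minutes, held the highest share of calls among the lists (24.0%, against 7.65% of all genes). With a mouse left out 2 to 8 were called, and 2 without WT_SE mouse 3. Of 25 genes 6 were called higher, 0 lower and 19 not at all, 23 of 25 log2 fold changes were positive, and the median was 0.32. The list was chosen with earlier results of these data known, so its share is not independent evidence of an excess. Arc and Egr2 were below 4 CPM in every WT_SE mouse and passed the filter only through WT_EE, so nothing is drawn from their positive signs. Nr4a2, an orphan nuclear receptor, was at 20.9, 16.7, 13.5 and 24.6 CPM in WT_SE mice 1, 2, 3 and 5 and at 43.2, 38.3, 65.6, 92.8 and 71.7 CPM in WT_EE mice 1 to 5. No WT_SE mouse reached any WT_EE mouse, and it was the only list gene to pass adjustment in the fit reported, with a log2 fold change of 1.68 (SE 0.32, adjusted p = 0.0249 in edgeR with Benjamini-Hochberg adjustment, exact permutation p = 0.0159). Over the alternatives its adjusted p ran from 9.43e-05 to 0.718. Maff likewise did not overlap, with 1 to 3 counts in WT_SE and 5 to 12 counts in WT_EE (edgeR p = 0.00426, exact permutation p = 0.0159). Nr4a1 had a log2 fold change of 0.81 (edgeR p = 0.0134, exact permutation p = 0.0476), with the call lost without WT_SE mouse 3 (0.60), with the ending as a term (0.48) and among the L2 libraries (0.49). Fosb had 0, 0, 0 and 2 counts in WT_SE against 2 to 4 in WT_EE, and 10 of 22 alternatives did not call it, including DESeq2, the Slc10a2 level or the ending as a term, the L2 libraries, and the fits without WT_SE mice 1, 2 or 3 or WT_EE mouse 4. Fos (log2 fold change 0.56, SE 0.27, exact permutation p = 0.262) and Myc (1.35, SE 0.64, exact permutation p = 0.198) rested on WT_EE mouse 5 among others and gave 0.29 and 0.74, not called, without it. The calls of Fos were also lost without WT_SE mice 2 or 3 or WT_EE mouse 2, and those of Myc without WT_SE mice 3 or 5 or WT_EE mouse 3. With the Slc10a2 level as a term Fos gave 0.26 and was not called, and it was also lost in DESeq2, in limma-voom, with filterByExpr, with upper-quartile scaling, with edgeR's newer quasi-likelihood form and with the library total as a term. Myc was lost in DESeq2, with the ending, among the L2 libraries and with the library total as a term (0.94).

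**Figure D4:**
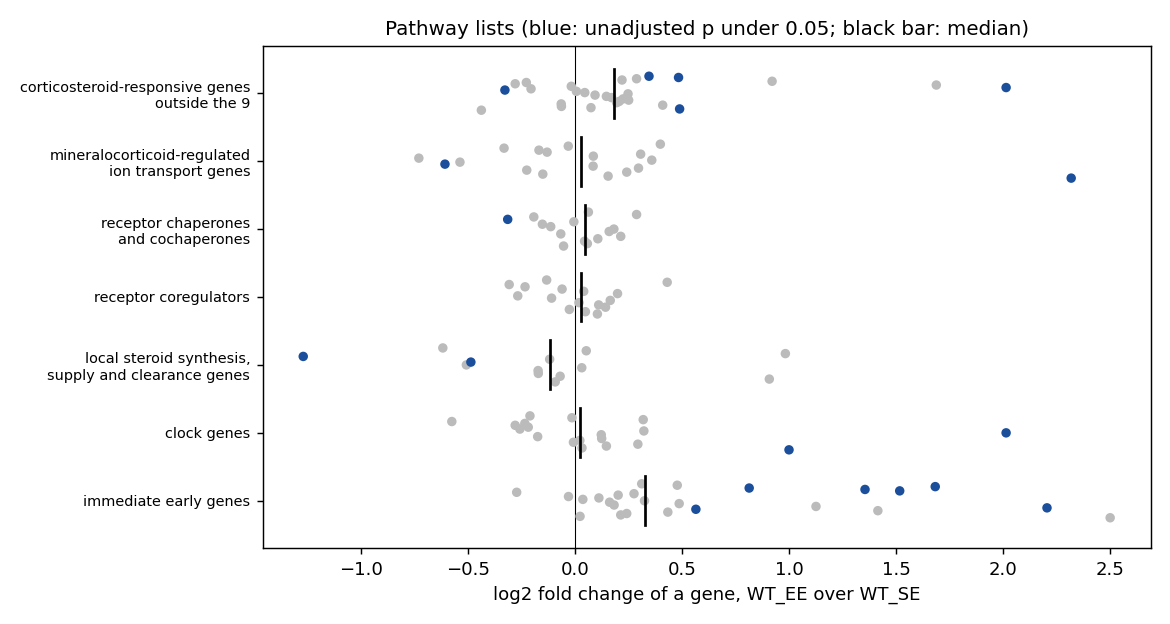
The log2 fold change of WT_EE over WT_SE for every tested gene of the 7 lists (points, blue where the unadjusted p in edgeR was under 0.05, vertical position within a list by gene name only), with the median of each list as a black bar. The medians run from −0.12 for the steroid synthesis list to 0.32 for the immediate early genes, which hold 6 of the calls.

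Over the 7 lists together, with a gene of more than 1 list taken once, 132 of 145 genes were tested, 12 were called higher and 5 lower (12.9%, against 7.65% of all genes), and 4 did not overlap between the groups, against 2.58% of all genes. In DESeq2 8 were called, and without WT_SE mouse 3 also 8. As the lists were chosen with earlier results of these data known, these shares are a description only. Nfil3, counted here among the genes called higher, passed the filter only through WT_EE.

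Cells of other kinds were counted in every piece. In bulk tissue fewer cells of a kind and less RNA per cell cannot be told apart. All 6 mesothelial markers, led by Krt7, summed to 139 to 210 CPM in WT_SE and 80.2 to 164 CPM in WT_EE. All 8 fibroblast markers, led by Col1a2, summed to 1104 to 1295 and 1056 to 1555 CPM, and all 9 endothelial markers, led by Kdr, to 149 to 292 and 250 to 306 CPM. The groups overlapped in each of these lists. Of 9 B cell and plasma cell markers 7 were counted, with Cd79a and Mzb1 at 0, and led by Jchain they summed to 250 to 384 and 249 to 345 CPM. T cell markers (8 of 8, led by Trbc2) summed to 20.9 to 69.6 and 30.9 to 72.1 CPM, and macrophage markers (8 of 8, led by Mrc1) to 203 to 265 and 157 to 272 CPM. The groups overlapped in these lists as well. Enteric neuron markers (8 of 8, led by Elavl4) summed to 180.1 to 409 and 185 to 393 CPM. The part of these cells in the values of the 9 genes was not tested. The sums of enteric glia markers are not given, so these lists do not describe the whole makeup of the pieces or how evenly it was shared between the groups.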

How the data were processed

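Total colon RNA of 9 mice was made into 3′ libraries (QuantSeq FWD) with molecular identifiers. The authors deposited whole-number molecule counts per gene, not normalized. The submitters' processing notes name fastp 0.20.0, STAR 2.7.0f, featureCounts 1.6.0, UMI-tools and the build GRCm38.p6, while the strand setting and annotation release of the counting were not stated. Genes absent from a library's list were taken as 0. Of 22262 gene identifiers, 22256 were matched to symbols and positions of GENCODE release M21.

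Genes that reached 4 CPM in 1 or more libraries were tested in R 4.3.3 with edgeR 4.0.16 (TMM, quasi-likelihood F test, housing as the only term), and p-values were adjusted by Benjamini-Hochberg over all 17441 genes. The common biological coefficient of variation was 15.1%. Unadjusted calls at 0.05 are given because the study used that limit. Intervals are at 95%. Single genes were also compared by two-sided exact permutation tests on CPM (smallest p 0.00794). Alternatives used DESeq2 1.42.0, limma 3.58.1, other scalings and filters, terms for the library-name ending, Slc10a2 and the library total, and each mouse left out. Python 3.11.15, numpy 2.4.6, pandas 2.3.3, scipy 1.17.1 and matplotlib 3.10.9 were used, and the fit was tested on simulated data. Promoter sequences came from RefSeq.

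The members and lists were chosen with earlier results of these data known. Named were all members, list genes that were called without overlap, up to 4 further genes per list with the smallest p, 12 of 13 marker lists by sum, leading gene and genes at 0, and the 3 genes (mean of at least 20 counts) most like 6 of the 7 members with a mean of at least 10 counts. The marker list whose sums are not given is that of enteric glia.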

Additional observations from a re-analysis of the deposited data

Results flagged for a closer look

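Single values that stood far from the rest of their group were looked for in 106 groups of mice (each gene named from the lists or the 9, and each marker sum, in WT_SE and in WT_EE), where chance alone gives about 1 in 20. There were 4. Tsc22d3 was at 101 CPM (29 counts) in WT_EE mouse 2 and at 51.8 to 64.8 CPM in the other WT_EE mice. Mt1 was at 167 CPM in the same mouse, against 250.4 to 256 CPM in the others. Fosb was at 5.47 CPM in WT_SE mouse 5, which is 2 counts and below the floor, with 0 in the other WT_SE mice. The macrophage markers summed to 272 CPM in WT_EE mouse 1, against 157 to 185 CPM in the others.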

How the results depend on the processing

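The direction of Nr3c1, Nr3c2 and Hsd11b2 was the same under every alternative run, while whether they were called was not. The number of members called was 1 as reported. It was 0 in DESeq2, with the library-name ending as a term, among the L2 libraries, with the replicate block, and with the adjusted limit, 2 without a filter on low counts, and 0 to 2 with a mouse left out. With alternatives chosen after the data were seen it was 0 with the Slc10a2 level, 3 with the library total, and 0 with no replicate block over the same 8 mice. Nr3c1 gave −0.37 in DESeq2, −0.20 with Slc10a2, −0.31 with the ending, −0.30 among L2 libraries, −0.27 with the replicate block, −0.27 without it over the same mice, and −0.44 to −0.26 with a mouse left out. Nr3c2 was called without a filter (−0.42) and lay between −0.61 and −0.22 with a mouse left out, called without WT_EE mouse 1 or WT_SE mouse 5. Hsd11b2 was called with the library total (−0.52) and lay between −0.40 and −0.012 with a mouse left out, and Klf9 was called with the library total (0.25). The signs of Fkbp5, Tsc22d3, Zbtb16 and Klf9, none called as reported, turned under some alternatives. Members with a positive log2 fold change numbered 5 as reported, 3 with filterByExpr (which left 7 members), with the ending and among L2 libraries, and 3 to 6 with a mouse left out. Genes called over all genes numbered 1334 as reported, 643 in DESeq2, 804 with filterByExpr (8590 genes tested), 688 with the ending, 680 among L2 libraries, 7 with the adjusted limit and 899 to 1581 with a mouse left out. Genes passing the adjusted limit numbered 7 as reported, 143 without a filter, 77 with the replicate block against 2 without it over the same mice, 38 with the library total, 0 with filterByExpr, the ending or L2 libraries, and 0 to 48 with a mouse left out. List genes called numbered 17 as reported, 8 in DESeq2, 10 with filterByExpr, 1 with the adjusted limit and 8 to 21 with a mouse left out. Upper-quartile scaling gave 45.0% of calls higher in WT_EE against 56.3% as reported and moved the median of all genes by −0.05. The cause of these changes was not tested, apart from the fewer genes or mice named. Mouse numbers are shared by different animals: deviations of WT_SE and WT_EE mice 1, 2, 3 and 5 correlated at −0.02, 0.05, 0.11 and 0.13 over 8493 genes, so the numbers were not taken to pair the mice. The exact permutation tests gave the same side of the limit for all 9 members on CPM without TMM. Depth limits Hsd11b1 and Zbtb16 most, with 2.44 and 6.56 counts per library on average.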
